A study of Homo sapiens with 5 samples.

Results

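RNF43, ZNRF3, LGR5, AXIN2, ASCL2, MYC, SOX9, CD44, EPHB2 and TCF7L2, genes of the WNT pathway and of colon stem cells, were examined for ATF3 and p53 binding in HCT116, a human colon cancer cell line. The genes were taken by name, with no binding threshold, and are 10 of the 20163 protein-coding genes annotated on chromosomes 1 to 22, X and Y. For each gene, every peak whose centre lay between 20 kb upstream of the transcription start site (TSS) and the end of the gene (hg19) was taken from 5 ChIP-seq peak lists, each from 1 library. The ATF3 antibody was used on ATF3-WT cells given DMSO (ATF3-Ctrl), on ATF3-WT cells given 1.5 μM camptothecin for 4 h (ATF3-CPT), and on ATF3-KO cells given DMSO (ATF3-KO). The p53 antibody was used on p53-WT cells given the same camptothecin treatment (p53-CPT) and on p53-KO cells given DMSO (p53-KO). Camptothecin (CPT) blocks topoisomerase I and thereby breaks DNA. The ATF3-KO cells were derived by viral gene targeting of ATF3 exon 3 and Cre excision of the selection gene, with selection of single clones. p53-CPT and p53-KO differed in both genotype and treatment, which cannot be told apart. Peak lists hold no expression values, so the identity of the cells could not be checked against markers.

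In the intestine, WNT ligands stabilize β-catenin, which joins TCF proteins on DNA and keeps the stem cells at the crypt base dividing. R-spondins amplify the signal through LGR5, which leads to removal of the ubiquitin ligases RNF43 and ZNRF3, and these ligases otherwise clear WNT receptors from the cell surface. Most of the genes examined here are themselves targets of β-catenin and TCF, so several of them close feedback loops. ATF3 is a stress-induced factor of the ATF/CREB family that binds the ATF/CRE element TGACGTCA and, as a partner of JUN proteins, the AP-1 element TGACTCA or TGAGTCA.

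Sequencing depth was 12820520 to 15457013 tags in the 3 ATF3 libraries and lower in the p53 libraries, with 3169743 tags for p53-CPT and 1984941 for p53-KO. Peaks held 5.6% of the tags in ATF3-Ctrl, 12.76% in ATF3-CPT and 0.56% in ATF3-KO. The value given below for each peak is its normalized tag count, the tags in the peak per 10000000 tags of its library. 1 tag was worth 0.772 in ATF3-Ctrl, 0.647 in ATF3-CPT, 3.15 in p53-CPT and 5.04 in p53-KO, so the p53 libraries could list only stronger sites. With 1 library per condition there are no replicates and no test of a condition: each ratio compares 2 libraries, and its 95% interval covers counting error only.

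Sequences of ATF3-CPT peaks that the results turn on are given first, 5′ to 3′ on the plus strand of GRCh37 (hg19). Each is the whole peak, except for the LGR5 promoter, where the core and its flanks are printed. AP-1 and ATF/CRE cores, searched as exact letters on both strands, stand in capitals. TCF7L2, EPHB2 and AXIN2 are shown for sites that were over 2-fold higher in ATF3-CPT, ASCL2 and the LGR5 promoter for peaks listed in ATF3-CPT alone, and RNF43 and ZNRF3 for strong sites without either core.
TCF7L2 intron, chr10:114847210-114847334: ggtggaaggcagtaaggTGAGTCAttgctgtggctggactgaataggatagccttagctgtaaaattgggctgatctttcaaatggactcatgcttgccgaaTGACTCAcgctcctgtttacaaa
EPHB2 intron, chr1:23158632-23158756: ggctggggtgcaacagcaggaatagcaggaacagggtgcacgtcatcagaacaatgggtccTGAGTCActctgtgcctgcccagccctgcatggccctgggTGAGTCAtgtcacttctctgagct
AXIN2 upstream, chr17:63559825-63559949: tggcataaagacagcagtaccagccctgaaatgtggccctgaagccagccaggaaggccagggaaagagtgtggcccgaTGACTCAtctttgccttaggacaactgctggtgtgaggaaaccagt
ASCL2 promoter, chr11:2290508-2290632: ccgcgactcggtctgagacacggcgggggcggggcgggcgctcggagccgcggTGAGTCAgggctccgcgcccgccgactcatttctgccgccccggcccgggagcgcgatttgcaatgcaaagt
LGR5 promoter, core and flanks only, chr12:71833502-71833531: caggctgcgcTGACGTCActgggcgcgcaa
RNF43 intron, chr17:56480171-56480295: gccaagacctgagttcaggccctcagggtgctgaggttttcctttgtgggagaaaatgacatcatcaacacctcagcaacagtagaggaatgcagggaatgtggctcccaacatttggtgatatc
ZNRF3 intron, chr22:29319982-29320106: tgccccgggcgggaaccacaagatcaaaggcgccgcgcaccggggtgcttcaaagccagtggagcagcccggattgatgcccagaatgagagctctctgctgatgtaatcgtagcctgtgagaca

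ATF3 peaks were found in the windows of 8 of the 10 genes in ATF3-Ctrl and of all 10 in ATF3-CPT. Over all protein-coding genes the shares were 65.1% in ATF3-Ctrl and 81% in ATF3-CPT. The 10 windows together span 1154.1 kb and held 57 peaks before and 86 after camptothecin. That is 4.94 peaks per 100 kb in ATF3-Ctrl against 1.78 over the windows of all genes, and 7.45 against 3.58 in ATF3-CPT. The members' windows are longer, with a median of 98.7 kb against 47.2 kb. ATF3-KO cells had 1 peak in the 10 windows, and 11.4% of all genes had one in that library. It lay in a TCF7L2 intron 58.0 kb from the TSS, at 10.1, and the nearest ATF3-CPT peak was 9989 bp away. None of the 57 or 86 peaks overlapped it. The share of all ATF3-Ctrl or ATF3-CPT peaks that overlap an ATF3-KO peak is not given here, so the count describes these windows only.

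**Figure D1:**
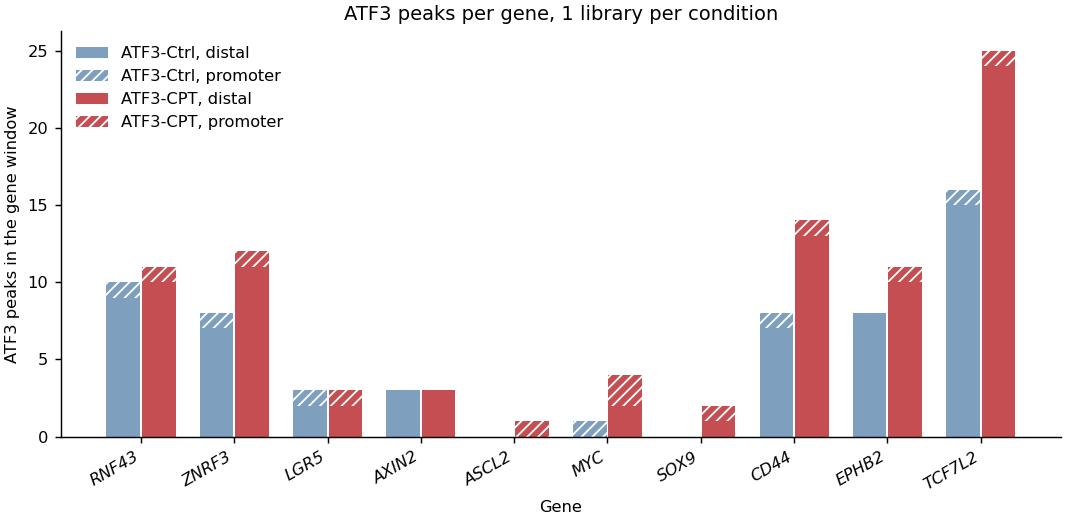
ATF3 peaks in the window of each gene (bars, number of peaks), in ATF3-Ctrl (blue) and ATF3-CPT (red), 1 library each, with promoter peaks hatched on top of distal peaks. TCF7L2 went from 16 to 25 peaks and CD44 from 8 to 14, whereas LGR5 and AXIN2 had 3 in both, and ASCL2 and SOX9 had none in ATF3-Ctrl.

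Peaks centred at most 2 kb from a protein-coding TSS were counted as promoter peaks, and the rest as distal. The 10 genes had 6 promoter and 51 distal peaks in ATF3-Ctrl, and 10 promoter and 76 distal peaks in ATF3-CPT. Promoter peaks were thus 1.67 times and distal peaks 1.49 times as many after camptothecin, where the ratios over all peaks were 1.63 and 2.21. A peak within 2 kb of the gene's own TSS was listed for 6 of 10 genes in ATF3-Ctrl and for 9 of 10 in ATF3-CPT, against 35.7% and 50.3% of all genes. AXIN2 was the gene without one, and its nearest ATF3-CPT peak stood 2121 bp upstream of the TSS. Moving the reference from the gene's TSS to the TSS of every annotated transcript raised the promoter counts to 10 and 18, since further transcript starts lie inside RNF43, AXIN2 and CD44. These starts were taken over all protein-coding genes, so those inside RNF43 may belong to another gene.

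Of the 86 ATF3-CPT peaks, 41 had no overlapping peak in ATF3-Ctrl, which is 47.7% (exact 95% interval 36.8 to 58.7%) against 61.7% of all ATF3-CPT peaks. By class, 6 of 10 promoter peaks and 35 of 76 distal peaks had no ATF3-Ctrl counterpart, where the shares over all peaks were 50.3% and 64%. The 41 were weaker peaks, with a median of 11.0 (range 5.2 to 50.5), than the ones that overlapped an ATF3-Ctrl peak, with a median of 23.9. At the same level in ATF3-Ctrl, 36 of the 41 would have an expected count of at least 9 tags. The caller's threshold of 9 in that library applies to its score, and an RNF43 peak was listed there with 8 tags. Calling also required 4-fold over the surrounding 10 kb, so these counts are only a rough guide to which sites could be listed. Only 15 would have at least 18 tags, and nearer to 9 counting error alone can leave a site unlisted. The same counts over all ATF3-CPT peaks are not given here. Of the 41, 7 had an ATF3-Ctrl peak centre within 500 bp. In the other direction, 2 of 6 promoter and 10 of 51 distal ATF3-Ctrl peaks overlapped no ATF3-CPT peak, against 19% and 20.4% overall. These 12 were low, from 6.2 to 13.1.

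At 45 sites, 4 promoter and 41 distal, a peak was listed in both libraries. The tag count was higher in ATF3-CPT at 39 of the 45, against 80.6% of all shared sites. It was at least 2-fold higher at 1 of 4 promoter and 20 of 41 distal sites, where the background was 24.3% and 49.4% of all such sites. No promoter and no distal site was at least 2-fold lower, against 1.16% and 2.44% overall. These counts are limited by the calling: a shared site had to be listed in ATF3-CPT, where the threshold was 9 and 9 tags are worth 5.82. The threshold applies to the caller's score, so 5.82 is an approximate limit: a shared TCF7L2 site was listed at 5.2. The members' shared sites had a median of 10.8 in ATF3-Ctrl, so many that fell 2-fold could have left the set. The median fold was 1.19 for the promoter sites and 1.93 for the distal sites, near 1.35 and 1.98 over all shared sites. All shared sites were shifted by a median log2 ratio of 0.85. Relative to that shift, 8 of the 45 were at least 2-fold higher (4 at CD44, and 1 each at EPHB2, TCF7L2, LGR5 and RNF43), against 8.19% of all shared sites, and 3 were at least 2-fold lower (2 at ZNRF3 and 1 at TCF7L2), against 15%. On the same centred scale the median log2 ratio was -0.60 for the members' promoter sites, so its sign turned, and 0.09 for their distal sites. For the 32 distal sites below 20 in ATF3-Ctrl the median fold was 2.09, against 2.06 for all such sites. The 9 distal sites at 20 or more split by gene: 5 at RNF43 and ZNRF3 had ratios of 0.64 to 1.25, and 4 at EPHB2 and TCF7L2 had ratios of 2.21 to 4.41. The median over all such sites was 1.70. The split depends on that cut. Just below it, a ZNRF3 site at 19.3 had a ratio of 2.72 and an RNF43 site at 17.8 a ratio of 4.80, whereas a TCF7L2 site at 17.8 had 1.85.

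**Figure D2:**
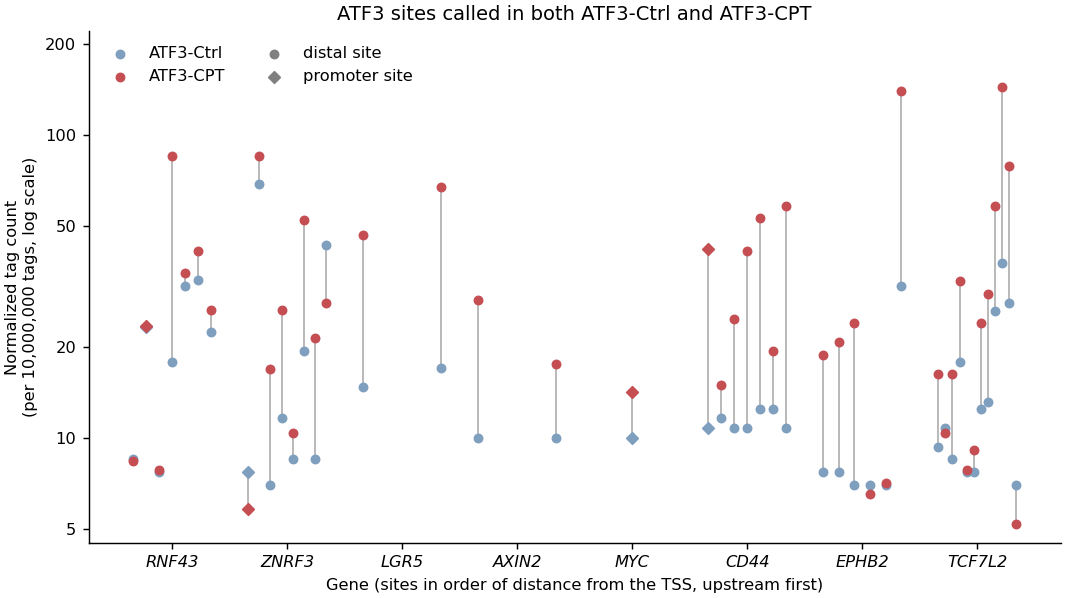
Normalized tag count (per 10000000 tags, log scale) of the 45 sites listed in both ATF3-Ctrl (blue) and ATF3-CPT (red), by gene, with a grey line joining the 2 values of a site and diamonds marking promoter sites. The longest upward lines belong to CD44, RNF43 and EPHB2, and the strongest ATF3-CPT sites are those of TCF7L2 at 144.3 and EPHB2 at 139.7.

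RNF43 and ZNRF3 encode the membrane ubiquitin ligases that remove Frizzled receptors. RNF43 had 10 peaks in ATF3-Ctrl and 11 in ATF3-CPT, and most of its shared sites were level. Its promoter site, 15 bp upstream of the TSS, was at 23.2 in ATF3-Ctrl and 23.3 in ATF3-CPT, a ratio of 1.00 (0.60 to 1.69). The 3 strongest intronic sites in ATF3-Ctrl, at 22.8, 26.0 and 29.7 kb, stood at 31.7, 33.2 and 22.4 and moved to 34.9, 41.4 and 26.5, with intervals that all include 1. The exception was the intronic site at 14.7 kb, 154 bp from the nearest transcript start of any protein-coding gene. The nearest gene-level TSS there belonged to a protein-coding gene other than RNF43. The site held 17.8 in ATF3-Ctrl and 85.4 in ATF3-CPT, 4.80-fold higher (3.07 to 7.85). Its sequence, printed above, holds no exact AP-1 or ATF/CRE core. The 4 RNF43 peaks listed in ATF3-CPT alone ranged up to 14.2.

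ZNRF3 had 8 peaks in ATF3-Ctrl, all with a counterpart among its 12 peaks in ATF3-CPT. The site 40.5 kb into the gene was the strongest ATF3-Ctrl site of all 10 genes, at 68.7, and stood at 85.4 in ATF3-CPT, a ratio of 1.24 (0.94 to 1.64). A site at 157 kb was at 43.3 in ATF3-Ctrl and 27.8 in ATF3-CPT. That ratio of 0.64 (0.42 to 0.97) was the only one of the 45 whose interval lay below 1. Sites at 93.1, 94.8, 148 and 149 kb were 2.40-, 2.28-, 2.72- and 2.51-fold higher in ATF3-CPT, each with an interval above 1, and the one at 148 kb was the highest of them, at 19.3 and 52.4. Its promoter site, 3 bp from the TSS, was close to the calling limit in both libraries, at 7.7 and 5.8.

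LGR5, the R-spondin receptor that marks crypt stem cells, had 3 peaks in each list. Its 2 intronic sites stood at 14.7 and 17.0 in ATF3-Ctrl and at 46.6 and 67.3 in ATF3-CPT. They were 3.17-fold (1.89 to 5.57) and 3.96-fold (2.48 to 6.59) higher at 29.6 and 117 kb. At the promoter the 2 lists placed their peaks apart: ATF3-Ctrl had one 1389 bp into the gene at 7.0, and ATF3-CPT one 49 bp upstream of the TSS at 5.2, which is near the lowest value of that list. The protein-coding TSS nearest to the ATF3-Ctrl peak was that of another gene, TSPAN8. The ATF3-CPT peak held the one ATF/CRE core found in any of the 86 ATF3-CPT peaks.

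AXIN2 is a scaffold of the β-catenin destruction complex and a feedback target of the pathway. Its upstream site, 2155 bp before the TSS by the ATF3-Ctrl peak and just outside the promoter limit, held 10.0 in ATF3-Ctrl and 28.5 in ATF3-CPT, 2.85-fold higher (1.50 to 5.74). A second site at 4.17 kb, in the gene, held 10.0 and 17.5, and the interval of its ratio of 1.75 (0.87 to 3.67) includes 1. Both hold an AP-1 core.

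ASCL2, MYC, SOX9 and TCF7L2 encode transcription factors: ASCL2 sets crypt stem cell identity, MYC drives growth, SOX9 marks stem and Paneth cells, and TCF7L2 is the main partner of β-catenin in the colon. ASCL2 had no peak in ATF3-Ctrl and a single weak one in ATF3-CPT, at 8.4, 1248 bp from the TSS and with an AP-1 core. SOX9 had none in ATF3-Ctrl and 2 in ATF3-CPT, at 16.8 in the promoter, 100 bp upstream of the TSS, and at 11.0 in the 3′ UTR. An ATF3-Ctrl peak beyond the gene end was 769 bp from the latter. MYC had 1 peak in ATF3-Ctrl, 1160 bp upstream, at 10.0, where ATF3-CPT had 14.2, a ratio of 1.42 (0.68 to 3.06). ATF3-CPT listed 3 more upstream MYC peaks, at 587, 2089 and 2762 bp from the TSS, with 14.9, 12.9 and 14.2. So the peaks of these 3 genes stayed at 16.8 or below in both libraries.

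TCF7L2 had the most ATF3 peaks, 16 and 25, in the longest window, 237 kb. Its strongest site lay in an intron 137 kb from the TSS and held 37.8 in ATF3-Ctrl and 144.3 in ATF3-CPT, 3.82-fold higher (2.79 to 5.31). With it, TCF7L2 holds the highest ATF3-CPT peak of the 10 genes, within the top 0.335% of that list by tag count. A neighbour at 143 kb went from 27.8 to 78.9, 2.84-fold (1.94 to 4.24). Both peaks hold AP-1 cores, and the sequence above shows 2 of them near opposite ends of the stronger peak. At 119.5 and 123.8 kb the values were 13.1 and 26.3 in ATF3-Ctrl and 29.8 and 58.2 in ATF3-CPT, ratios of 2.27 and 2.21. Beside the latter, at 123.6 kb, stood a peak of 50.5 listed in ATF3-CPT alone, the strongest such peak of the 10 genes, with an ATF3-Ctrl peak centre 290 bp away. The stretch from 119.5 to 143 kb thus held all 4 of the TCF7L2 sites that were at least 2-fold higher. At its promoter the ATF3-Ctrl peak, at 10.0, and the ATF3-CPT peak, at 12.9, did not overlap but had centres 230 bp apart.

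CD44 is a hyaluronan receptor, and EPHB2 a receptor tyrosine kinase that positions cells along the crypt. CD44 had the one promoter site that was over 2-fold higher, in its 5′ UTR 215 bp from the TSS. It held 10.8 in ATF3-Ctrl and 42.1 in ATF3-CPT, a ratio of 3.90 (2.16 to 7.50). The largest ratio among the 45 sites was also at CD44, 76.0 kb from the TSS and 196 bp from the nearest annotated transcript start. That site held 10.8 in ATF3-Ctrl and 58.2 in ATF3-CPT, a ratio of 5.39 (3.05 to 10.2), within the top 0.780% of all shared sites. Further CD44 sites at 27.0 and 28.0 kb held 10.8 and 12.4 in ATF3-Ctrl and 41.4 and 53.1 in ATF3-CPT, ratios of 3.83 and 4.28. At 24.1 kb the ratio was 2.28 (1.20 to 4.54), with 10.8 and 24.6. The remaining sites, at 5.54 and 35.2 kb, had ratios of 1.28 (0.64 to 2.65) and 1.56 (0.83 to 3.08), with intervals that include 1. In ATF3-Ctrl no shared CD44 site exceeded 12.4, and the gene had the highest median ratio of those with more than 2 shared sites, at 3.83.

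EPHB2 had 8 peaks in ATF3-Ctrl, none at the promoter, and 11 in ATF3-CPT, of which 1 lay 3 bp from the TSS at 11.6. A single intronic site stood out, 121 kb from the TSS, with 31.7 in ATF3-Ctrl and 139.7 in ATF3-CPT, 4.41-fold higher (3.15 to 6.32) and within the top 0.372% of the ATF3-CPT list. It carries 2 AP-1 cores in the sequence above. Upstream, at 6.14 kb before the TSS, and in the gene at 27.8 and 39.7 kb, sites that held 7.7, 7.7 and 7.0 in ATF3-Ctrl held 18.8, 20.7 and 23.9 in ATF3-CPT.

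**Figure D3:**
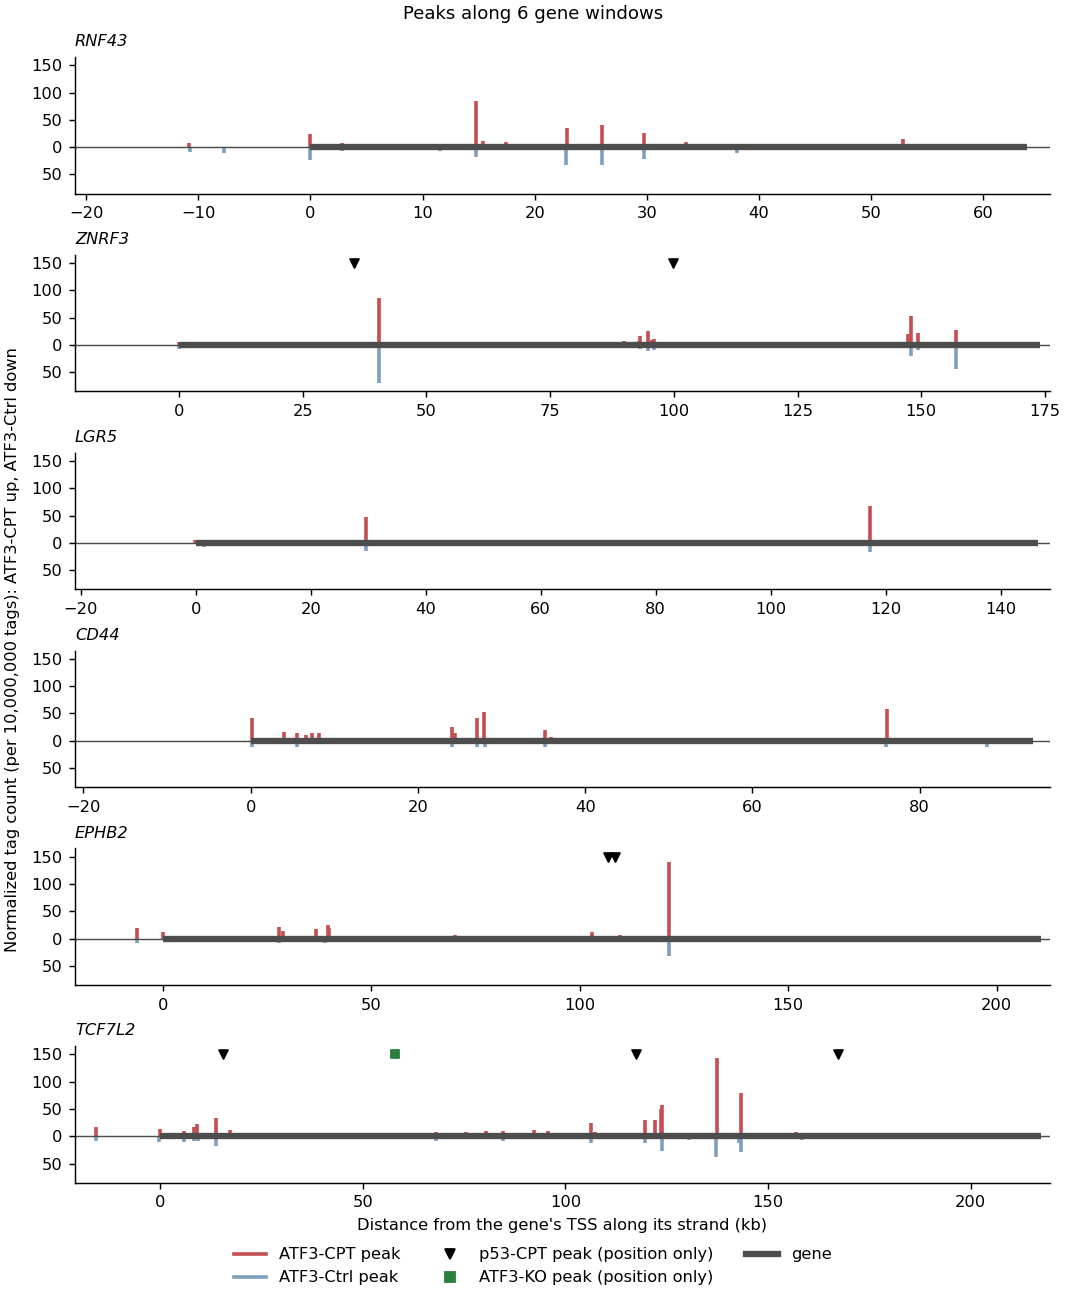
Peaks along the windows of 6 genes by distance from the TSS (kb), as vertical lines whose height is the normalized tag count (per 10000000 tags), ATF3-CPT upward and ATF3-Ctrl downward, with p53-CPT peaks (triangles) and the ATF3-KO peak (square) marked by position only. RNF43 and ZNRF3 have intronic sites of like height in both directions, at 26.0 and 40.5 kb for example. The upward line is the taller at EPHB2 121 kb and TCF7L2 137 kb, and also at RNF43 14.7 kb and ZNRF3 148 kb. No triangle coincides with an ATF3 line.

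Among the 57 ATF3-Ctrl peaks, 13 held an AP-1 core (22.8%, against 31.0% of all peaks of that list), as did 33 of the 86 ATF3-CPT peaks (38.4%, against 40.6%). Stretches of the same length 1000 bp away held one in 2.08% of cases in ATF3-CPT. In ATF3-CPT the core was in 1 of 10 promoter peaks and 32 of 76 distal peaks, against 14.0% and 45.9% of all promoter and distal peaks. No ATF3-Ctrl peak and 1 ATF3-CPT peak held the ATF/CRE core, which was present in 1.93% and 1.41% of all peaks. Shared sites with an AP-1 core in the ATF3-CPT peak were at least 2-fold higher in 12 of 16 cases, with a median fold of 2.57. Those without were so in 9 of 29, with a median fold of 1.42. Over all shared sites the same split gave 67.9% and 28.4%, with median folds of 2.40 and 1.36. The sites with the 2 largest ratios, at CD44 and RNF43, were among those without the core.

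**Figure D4:**
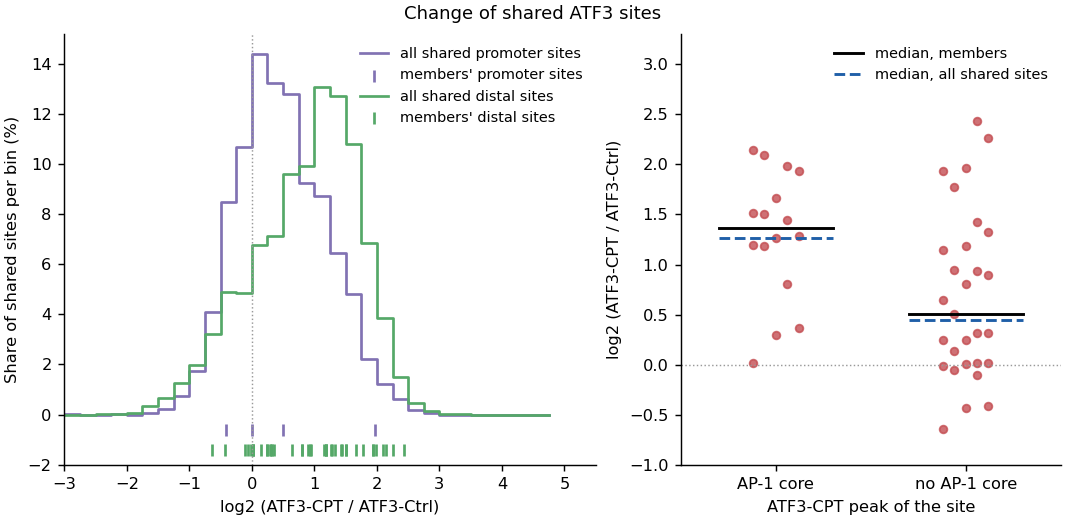
Left, log2 ratio of normalized tag counts (ATF3-CPT over ATF3-Ctrl) of all shared promoter (purple) and distal (green) sites, as the share of sites per bin, with the members' sites as ticks below. Right, the same ratio for the members' 45 shared sites by AP-1 core in the ATF3-CPT peak, with medians of the members (black) and of all shared sites (blue, dashed): 1.36 and 1.26 with the core, 0.51 and 0.45 without.

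p53 peaks were listed in p53-CPT for 3 of the 10 genes, ZNRF3, EPHB2 and TCF7L2, against 21.8% of all genes, and in p53-KO for TCF7L2 alone, against 17.4%. All 7 p53-CPT peaks were intronic and distal. ZNRF3 had peaks of 31.5 and 72.6 at 35.3 and 99.8 kb, and EPHB2 had peaks of 50.5 and 25.2 at 107 and 108 kb. TCF7L2 had peaks of 25.2, 41.0 and 173.5 at 15.4, 117.5 and 167 kb. The strongest of these, at 173.5 (131 to 226), overlapped a p53-KO peak of 297.2 (226 to 383), and the other p53-KO peak, at 30.2, lay 14.5 kb into TCF7L2. None of the 7 overlapped an ATF3-CPT peak, and the nearest ATF3-CPT peaks were 1372 to 8772 bp away. The share over all 9082 p53-CPT peaks is not given here, so the count describes these 7 only. A match to the p53 consensus motif with at most 3 mismatches was found in 4 of the 7, against 20.3% of all p53-CPT peaks and 7.13% of stretches 1000 bp away. The closest match, with 1 mismatch, was in the TCF7L2 peak at 117.5 kb, which overlapped no p53-KO peak. The 100 bases around it follow, with the motif in capitals.
TCF7L2 intron, p53-CPT peak, chr10:114827449-114827548: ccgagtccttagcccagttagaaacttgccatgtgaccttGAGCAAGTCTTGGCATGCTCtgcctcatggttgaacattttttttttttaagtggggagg

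Among 97 further genes of the pathway and of colon stem or differentiated cells, 63 (64.9%) had an ATF3 peak in ATF3-Ctrl and 85 (87.6%) in ATF3-CPT, beside the 65.1% and 81% of all genes given above. Their 170 and 357 peaks came to 1.81 and 3.79 per 100 kb, close to 1.78 and 3.58 over all gene windows. The 18 receptor genes had 18 peaks in ATF3-Ctrl and 65 in ATF3-CPT, 0.852 and 3.08 per 100 kb, both below the values over all gene windows. The 15 genes of agonists and secreted inhibitors were also below both, at 0.889 and 2.07 per 100 kb. Of the 135 shared sites of all 97 genes, 60 (44.4%) were at least 2-fold higher and 2 (1.48%) at least 2-fold lower in ATF3-CPT, near the 43.9% and 2.16% of all shared sites. Of the 21 promoter sites among them, 8 (38.1%) were at least 2-fold higher, against 24.3% of all promoter sites. Genes of the cytoplasmic machinery held 12 of the 21 and 7 of the 8. GSK3B, a kinase of the destruction complex, went from 26.3 to 67.9 at its promoter, 2.58-fold (1.74 to 3.93). The casein kinase genes CSNK1A1 and CSNK1D went from 10.0 to 31.7 and from 8.5 to 27.2, and CSNK1E, DVL2, GSK3A and the ligand gene WNT9A were also over 2-fold higher, at 2.66, 2.34, 2.14 and 2.56. SP5, a repressor induced by WNT signals, went the other way, from 12.4 to 5.8, with an interval of 0.18 to 1.13 that includes 1. A p53-CPT peak was listed for 29 of the 97 (29.9%, against 21.8% of all genes). In p53-KO cells a peak was listed for 23 of the 97, against 17.4% of all genes. At 15 of the 29, at least 1 p53-CPT peak overlapped no p53-KO peak, the highest being TLE1 at 82.0. The same count over all genes is not given here.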

How the data were processed

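HCT116 chromatin was crosslinked and precipitated with an ATF3 or p53 antibody, 1 library per condition. The authors aligned reads to hg19 with BWA 0.6.1 and called peaks in each library with HOMER 4.1 findPeaks (factor style, FDR 0.001, 4-fold over the surrounding 10 kb), with no input library in the recorded command. Each deposited peak carries a signal, its normalized tag count, which is tags per 10000000 tags of the library. The deposited findPeaks score counts at most 1 tag per position and was used for calling limits and an alternative. Samples were grouped by their labels. Whole tags were recovered from the normalized values, all within 0.1 of a whole number. Gene positions came from GENCODE 44 mapped to GRCh37. Peaks overlapping by at least 1 bp were shared, and each ATF3-Ctrl peak was paired with its strongest overlapping ATF3-CPT peak. Ratio intervals are exact and conditional on the summed tags, checked on simulated data, and shares have Clopper-Pearson intervals, both at 95%. No test of a condition was possible. The described sites of each gene are its highest-scoring peaks, promoter peaks, knockout and p53 peaks, and sites changed by 2-fold or more, in part as ranges or counts. A few others were added to show contrast. The genes, lists and rules were chosen with earlier results of these data known, and the p53 motif search and the split by AP-1 core were added after the values were seen. Python 3.11.15, pandas 2.3.3 and scipy 1.17.1 were used. Sequences are printed for a selection of the described sites.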

Additional observations from a re-analysis of the deposited data

How the results depend on the processing

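With 1 library per condition, library-to-library spread is unknown, and intervals cover counting error only. No paired analysis was possible because each condition has 1 library. Over 11 alternatives, 46 of 60 recomputed values stayed close to the reported ones, 13 moved, and 1 reversed. Counts were close when within 1.5 times, and medians when within 0.95 on the log2 scale, the median half-width of the sites' counting intervals, which is wide. A findPeaks score of at least 20 left 13 ATF3-Ctrl and 49 ATF3-CPT peaks, that is 1 and 5 promoter peaks and 12 and 44 distal peaks, with 73.5% of the ATF3-CPT peaks lacking an ATF3-Ctrl peak and 6 sites at least 2-fold higher. Promoters set by the TSS of every transcript gave 10 and 18 peaks. Centring the ratio on its median over all shared sites gave 8 sites higher and 3 lower by 2-fold, turned the promoter median log2 ratio from 0.26 to -0.60 and brought the distal one from 0.95 to 0.09. A limit of 1.5-fold gave 1 lower site. Why these values moved was not tested, beyond the smaller lists that the score limit makes by construction.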
